A study of Mus musculus with 203 samples.

Results

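The 31 genes described here encode enzymes and regulators of cholesterol and fatty acid synthesis. They were chosen by gene symbol, by a rule that uses no measured value but was written with earlier results of these data known, and were divided into a sterol branch of 22 genes and a fatty acid branch of 9 genes. All 31 were found among the 25094 genes of the RNA-seq table of RAW264.7 cells (hereafter RAW cells), a mouse macrophage line labelled as BALB/c. All 31 were also listed among the 16478 genes of a table of bone marrow-derived macrophages, wild-type or Gps2 knockout, which holds the authors' own comparisons and no values per library, so no value was taken from it.

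The series asked how the corepressor subunit GPS2 and the histone demethylase KDM1A shape the macrophage response to IL4, a cytokine that drives macrophages toward the alternatively activated state. The 16 RNA-seq libraries used here came from 2 RAW cell lines, shGFP (a control hairpin against GFP) and shKDM1A (a hairpin against Kdm1a), with 4 libraries each without IL4 and 4 libraries each with IL4 at 20 ng/ml for 6 h. Both lines carried a lentiviral hairpin and were expanded after puromycin selection, so each hairpin is represented by 1 line and the control cells had the same virus and drug history. The study's methods describe its experiments in general as having biological replicates, and the labels do not say whether the libraries of a group came from separate cultures, so the p-values measure the spread between these libraries, part of which may be technical.

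Cells make sterols from acetyl-CoA through the mevalonate pathway, whose product farnesyl diphosphate is joined into squalene, closed into lanosterol and then trimmed to cholesterol. Fatty acids are built from the same cytosolic acetyl-CoA by acetyl-CoA carboxylase and fatty acid synthase, and are then elongated and desaturated. Genes of both branches are classical targets of the SREBP transcription factors: when membrane sterol is high, INSIG proteins hold the SREBP precursors in the endoplasmic reticulum, and when it is low the precursors are released, cleaved and sent to the nucleus. In macrophages this balance of synthesis, uptake and efflux is also tied to the oxysterol receptors LXR, which raise efflux transporters and SREBP1.

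All values are the deposited values per library, normalised by the authors and read here as a log2 scale, on which a difference of 1 is a doubling. The transformation behind them is not named in the sources used here, so whether it draws the differences of low genes toward 0 is not known. Differences were tested with limma over the 12905 genes that reached a value of 1 in at least 4 libraries, and a gene was called higher or lower at a Benjamini-Hochberg adjusted p under 0.05. All 31 members passed this filter. In bulk RNA, fewer cells of a type and less RNA per cell cannot be told apart.

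The libraries held between 17554721 and 27782568 tags. Kdm1a, the targeted gene, lay between 11.07 and 11.23 in the 8 shGFP libraries and between 10.23 and 10.36 in the 8 shKDM1A libraries, with no overlap, which is a log2 fold change of -0.88 ± 0.028 (SE) without IL4 and -0.79 ± 0.028 with IL4. All 10 macrophage markers looked for (Cd68, Csf1r, Lyz2 and others) were measured in every library, while of 17 markers of T cells, B cells, fibroblasts and epithelial cells only Lck passed the filter, at 5.71 to 5.92. The 4 libraries of IL4-treated shKDM1A cells differed among themselves. Across all genes, deviations from the mean of 4 libraries with nothing in common correlate at about -0.33, and the 18 pairs within the other groups had r from -0.50 to -0.14. In this group r was 0.03 for libraries 1 and 3, 0.18 for libraries 2 and 4 and -0.61 to -0.51 for the other 4 pairs. Libraries 1 and 3 differed from libraries 2 and 4 by a median of -0.12 on the log2 scale in the 1312 genes with transcripts over 6 kb, against 0.030 in the 4225 genes with transcripts under 2 kb. In the members the median difference between these pairs was 0.022 over the 22 sterol genes (6 of them below 0) and -0.11 over the 9 fatty acid genes (8 of them below 0), from -0.24 in Acaca to 0.17 in Acss2. The counts of called members that rest on this group are given with each pair alone, and most other counts that use it are given for all 4 libraries only.

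SREBP factors act through short promoter motifs, usually beside CCAAT and GC boxes, so the promoters of a few responsive genes are shown before the values. RefSeq promoter windows (250 bases before to 50 bases after a transcript start, build GRCm38.p6, not the mm9 build of the expression table) were found for 25 of the 31 members, 18 sterol and 7 fatty acid genes, as 30 windows among 32851. Fads1, Fdft1, Fdps, Scd1, Sqle and Stard4 had no entry. The 250 bases before the start follow for Lss, Insig1 and Nsdhl (the 3 sterol genes with an entry that fell most with IL4), for Hmgcs1 (the only member with an entry that holds the sterol regulatory letters) and for Fads2 (the fatty acid gene with an entry that fell most). Capitals mark matches on either strand to the sterol regulatory element TCACNCCAC, the E-box CACGTG, the CCAAT box CCAAT and the GC box GGGCGG. None of the marked matches of different motifs overlapped.
Lss: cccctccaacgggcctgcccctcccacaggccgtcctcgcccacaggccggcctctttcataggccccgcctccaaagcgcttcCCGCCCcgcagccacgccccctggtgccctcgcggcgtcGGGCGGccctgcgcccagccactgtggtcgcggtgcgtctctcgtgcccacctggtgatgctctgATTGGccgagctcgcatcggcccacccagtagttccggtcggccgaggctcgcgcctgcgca
Insig1: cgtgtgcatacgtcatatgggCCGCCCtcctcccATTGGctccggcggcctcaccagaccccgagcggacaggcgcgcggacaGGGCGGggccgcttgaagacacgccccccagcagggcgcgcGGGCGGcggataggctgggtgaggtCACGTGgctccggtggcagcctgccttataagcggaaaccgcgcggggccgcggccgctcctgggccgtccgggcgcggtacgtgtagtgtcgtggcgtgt
Nsdhl: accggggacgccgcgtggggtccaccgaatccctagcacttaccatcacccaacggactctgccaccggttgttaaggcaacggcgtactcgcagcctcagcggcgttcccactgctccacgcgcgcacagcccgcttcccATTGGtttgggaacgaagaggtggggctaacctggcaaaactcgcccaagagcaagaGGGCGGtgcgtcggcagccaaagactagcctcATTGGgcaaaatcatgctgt
Hmgcs1: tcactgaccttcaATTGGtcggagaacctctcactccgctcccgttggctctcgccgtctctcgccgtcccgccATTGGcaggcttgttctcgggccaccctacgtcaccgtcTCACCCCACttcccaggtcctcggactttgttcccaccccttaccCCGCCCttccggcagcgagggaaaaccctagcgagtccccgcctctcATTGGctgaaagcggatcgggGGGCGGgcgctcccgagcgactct
Fads2: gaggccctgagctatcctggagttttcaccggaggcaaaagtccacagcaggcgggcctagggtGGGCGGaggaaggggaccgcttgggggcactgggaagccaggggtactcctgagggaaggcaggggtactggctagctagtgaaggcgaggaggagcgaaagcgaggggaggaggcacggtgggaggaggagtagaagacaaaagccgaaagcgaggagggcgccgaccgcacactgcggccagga
The windows shown lie at chr10:76531355-76531604 on the plus strand for Lss, chr5:28071162-28071411 on the plus strand for Insig1, chrX:72918271-72918520 on the plus strand for Nsdhl, chr13:119690101-119690350 on the plus strand for Hmgcs1 and chr19:10101504-10101753 on the minus strand for Fads2.

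The sterol regulatory letters TCACNCCAC stood in 1 of the 30 member windows (3.33%), that of Hmgcs1, and in 1.24% of all windows. The E-box was found in 5 member windows (16.7%, in Dhcr7, Elovl5, Hsd17b7, Insig1 and Sc5d), against 7.15% of all windows. CCAAT was found in 21 member windows (70.0%), against 37.4% of all, and GGGCGG in 22 (73.3%), against 35.7% of all. In the sterol branch 17 of 18 genes with an entry held CCAAT, and in the fatty acid branch 4 of 7. A match describes these letters only and is not a site of binding, and a missing match says nothing about a factor.

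In resting shGFP cells most members were well expressed. Per kb of transcript, Fdps (farnesyl diphosphate synthase) stood highest at 12.73 on the log2 scale. Fads2 followed at 12.03 and Fads1 at 11.85, both desaturases of polyunsaturated fatty acid synthesis. Acly and Acss2, which make cytosolic acetyl-CoA from citrate and from acetate, stood far apart at 10.89 and 7.29. Srebf2, which encodes SREBP2, stood at 10.73, and the 2 INSIG genes differed, Insig1 at 9.86 and Insig2 at 7.27. The lowest member was Hmgcs1 (HMG-CoA synthase) at 4.54, below Tm7sf2 (a sterol reductase of the endoplasmic reticulum) at 6.89.

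**Figure D1:**
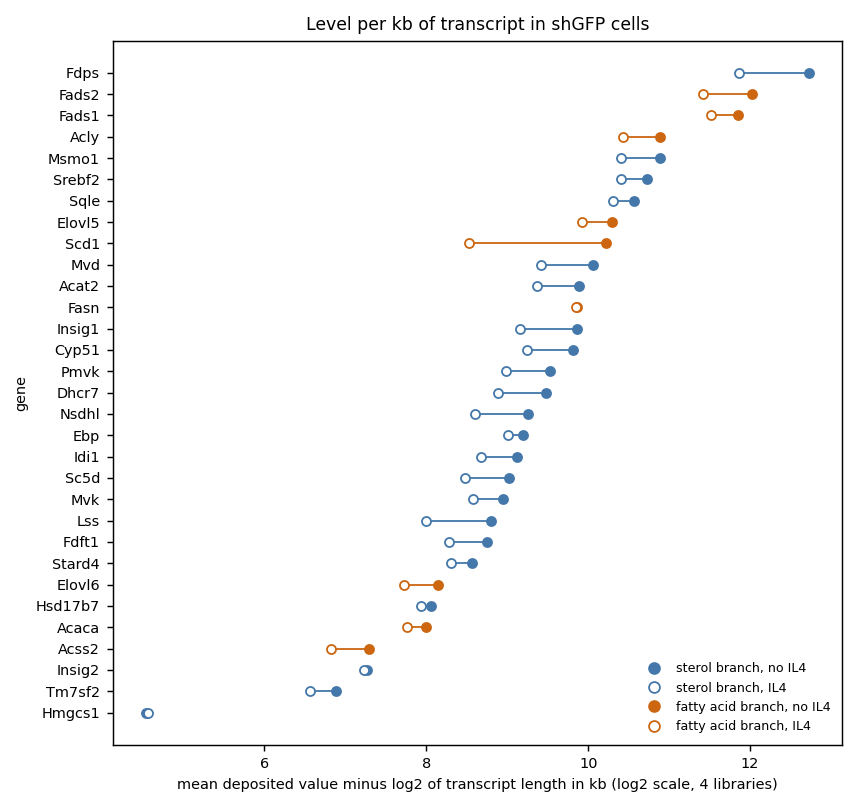
Mean deposited value minus log2 of transcript length in kb, for shGFP cells without IL4 (filled) and with IL4 (open), 4 libraries each, sterol branch in blue and fatty acid branch in orange. Fdps stands highest at 12.73 and Hmgcs1 lowest at 4.54, and the longest line is that of Scd1.

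A few rows need care. The row of Hmgcs1 (NM_145942) is placed on the unplaced sequence chr13_random of mm9, from 114527 to 132436 on the minus strand, and its level stood at percentile 23.5 of the tested genes, against 58.5 for Mvk, the next enzyme of the route in these lists. Counting used the exons of both strands, so reads of a gene cannot be told from those of a neighbour where their exons overlap. The overlaps given here are of whole gene spans, introns included, and how much of them was counted was not determined. The span of Fdft1 (squalene synthase) shares 773 bases with that of Ctsb, the cathepsin B gene on the other strand, which lay at 15.65 on average against 10.49 for Fdft1. The span of Lss shares 11269 bases with that of 4930483K19Rik on the other strand, at 7.02 against 11.16 for Lss, and that of Acss2 shares 9891 bases with Acss2os, at 4.03 against 8.59 for Acss2. Acat2 has a close copy in Acat3 (10.79), and Scd1 has close copies in Scd2 (14.87), Scd3 (7.53) and Scd4 (6.47). How reads matching more than 1 place were counted is not given in the sources used here, so these members are uncertain to that extent.

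IL4 lowered both branches in control cells. In shGFP cells 20 of 22 sterol genes and 8 of 9 fatty acid genes fell with IL4 and none rose, against 13.7% of all tested genes called lower and 13.1% called higher. The median log2 fold change was -0.47 for the sterol branch and -0.42 for the fatty acid branch, against -0.00049 for all tested genes. The values of the treated and untreated libraries did not overlap for any of the 28 genes called, against 14.4% of all tested genes that were lower without overlap. The 3 members that were not called were Hmgcs1 (0.03 ± 0.17), Insig2 (-0.03 ± 0.040) and Fasn (-0.01 ± 0.070).

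Within the sterol branch the steepest change was that of Fdps (chr3:88897510-88905889 in mm9, minus strand), the branch point enzyme that supplies sterols, dolichol and protein prenylation. Its values were 13.27, 13.24, 13.25 and 13.30 in the untreated shGFP libraries and 12.42, 12.39, 12.41 and 12.36 in the treated ones. The treated libraries all lay below the untreated, with a log2 fold change of -0.87 ± 0.028 (limma, adjusted p = 8.36e-13). The mean level fell by 45.2% on this scale. Lss (chr10:75994350-76019884, plus strand), which closes squalene epoxide into lanosterol, read 11.43, 11.47, 11.47 and 11.48 without IL4 and 10.65, 10.69, 10.64 and 10.65 with it. This was a log2 fold change of -0.80 ± 0.023 (adjusted p = 2.18e-13), and the groups were separated by many times their spread.

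Insig1 (chr5:28397952-28405202, plus strand), which retains the SREBP escort protein SCAP and is itself a classical SREBP target, read 11.29, 11.19, 11.29 and 11.27 without IL4 and 10.60, 10.52, 10.51 and 10.61 with it. Its log2 fold change was -0.70 ± 0.032 (adjusted p = 6.96e-11), whereas its relative Insig2 read 8.59 to 8.77 without and 8.62 to 8.69 with IL4, so that the groups overlapped. Nsdhl (chrX:70163860-70203867, plus strand), a dehydrogenase that helps remove the methyl groups of lanosterol, read 10.48, 10.34, 10.39 and 10.38 without IL4 and 9.74, 9.69, 9.74 and 9.83 with it. Its log2 fold change was -0.65 ± 0.031 (adjusted p = 9.97e-11), again with no overlap.

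The fall covered both segments of the sterol route. In the mevalonate segment Acat2 (acetoacetyl-CoA thiolase) had a log2 fold change of -0.52, Mvk (mevalonate kinase) -0.36, Pmvk (phosphomevalonate kinase) -0.55, Mvd (the decarboxylase) -0.64 and Idi1 (the isomerase of isopentenyl diphosphate) -0.45, so that 6 of 7 genes fell. From squalene to cholesterol all 11 genes fell, and besides Lss and Nsdhl these were Fdft1 (-0.47), Sqle (squalene epoxidase, -0.27), Cyp51 (lanosterol demethylase, -0.56), Tm7sf2 (-0.33), Msmo1 (methylsterol monooxygenase, -0.48), Hsd17b7 (a ketosteroid reductase, -0.12), Ebp (the sterol isomerase, -0.18), Sc5d (a sterol desaturase, -0.54) and Dhcr7 (the last reductase of the route, -0.60). The neighbour of Fdft1, Ctsb, had a log2 fold change of -0.40 in the same comparison, and its part in the change of Fdft1 was not tested. Of the regulators, Srebf2 fell by 0.32 and Stard4, which carries cholesterol between membranes, fell by 0.26 on the log2 scale. The smallest call, Hsd17b7 (adjusted p = 0.0176), was lost when shGFP library 2, or library 1 or 4 of the treated group, was left out (adjusted p 0.0524 to 0.058).

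In the fatty acid branch Scd1 (chr19:44468940-44482199, minus strand), the desaturase that makes oleate and palmitoleate, read 12.45, 12.54, 12.57 and 12.42 without IL4 and 10.83, 10.83, 10.75 and 10.77 with it. The log2 fold change was -1.70 ± 0.040 (adjusted p = 2.99e-14), and the mean level fell by 69.1% on this scale. Scd1 ranked 1 of the 12905 tested genes in order of decrease. Fads2 (chr19:10137255-10175993, minus strand), whose promoter is shown above and holds a GC box but none of the other letters searched, read 13.56, 13.55, 13.53 and 13.59 without IL4 and 12.97, 12.95, 12.92 and 12.96 with it. Its log2 fold change was -0.61 ± 0.018 (adjusted p = 2.96e-13).

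Both acetyl-CoA suppliers fell. Acly read 13.01, 13.06, 13.04 and 13.00 without IL4 and 12.55, 12.57, 12.61 and 12.52 with it, a log2 fold change of -0.46 ± 0.032. Acss2 read 8.75, 8.71, 8.82 and 8.84 without IL4 and 8.32, 8.29, 8.32 and 8.34 with it, a log2 fold change of -0.46 ± 0.040, at a far lower level. The elongases Elovl5 (-0.38) and Elovl6 (-0.42), the desaturase Fads1 (-0.34) and Acaca (acetyl-CoA carboxylase, -0.24) fell as well. Fasn, which encodes fatty acid synthase and acts between Acaca and the elongases, read 13.12 to 13.29 without IL4 and 13.10 to 13.20 with it, and the groups overlapped.

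**Figure D2:**
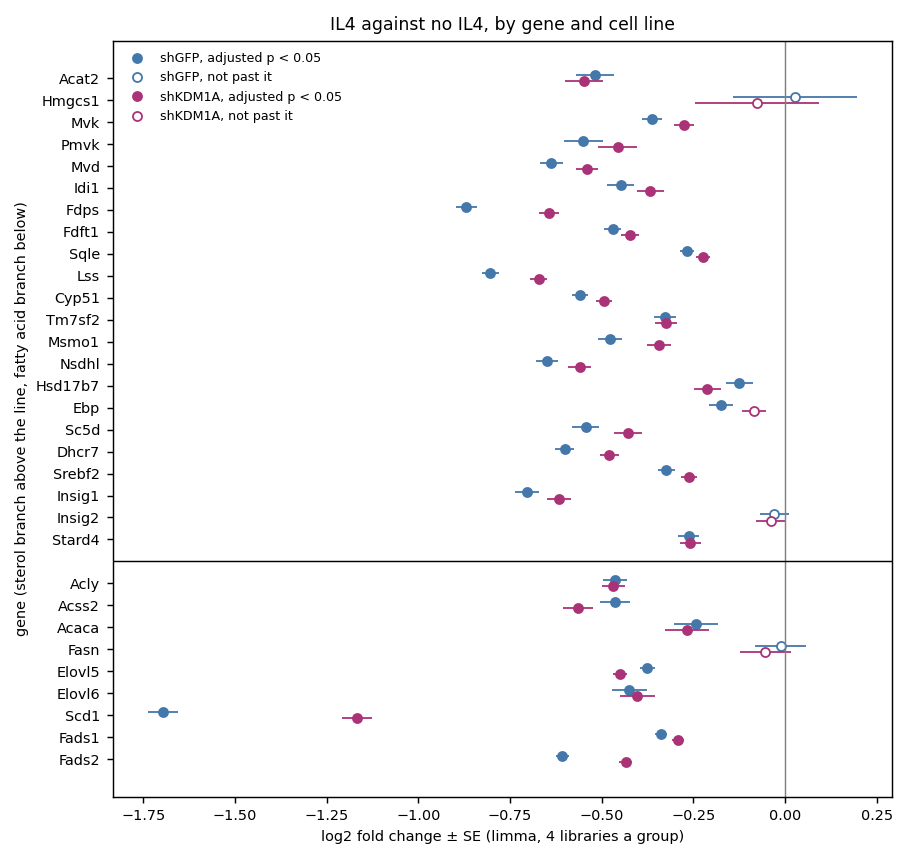
Log2 fold change with IL4 against without IL4 for each gene, in shGFP cells (blue) and shKDM1A cells (purple), with bars of ± 1 SE, from limma on 4 libraries a group; filled points passed an adjusted p of 0.05. In shGFP cells 28 of 31 genes and in shKDM1A cells 27 of 31 genes lie to the left of 0 with a filled point, and Scd1 lies farthest left in both lines.

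The same genes were lower after IL4 in shKDM1A cells. There 19 of 22 sterol genes and 8 of 9 fatty acid genes fell and none rose, against 13.5% of all tested genes called lower and 13.6% called higher, and all 27 were among the 28 called in shGFP cells. The median log2 fold change was -0.40 for the sterol branch and -0.43 for the fatty acid branch. Ebp (-0.08 ± 0.032, adjusted p = 0.0678) was the only gene called in shGFP and not in shKDM1A cells, it was called when shGFP library 3 was left out (adjusted p = 0.0227), and its difference between the lines was not past the threshold (adjusted p = 0.252). With IL4-treated libraries 1 and 3 alone, or 2 and 4 alone, the counts stayed at 19 and 8. For 28 of the 31 members all treated libraries lay below all untreated ones, against 12.7% of all tested genes.

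Lss had the largest change of the sterol branch in this line, from 11.57, 11.65, 11.55 and 11.62 without IL4 to 10.92, 10.94, 10.93 and 10.91 with it, a log2 fold change of -0.67 ± 0.023 (adjusted p = 2.65e-12). Fdps read 13.32, 13.35, 13.31 and 13.32 without and 12.75, 12.64, 12.73 and 12.61 with IL4, or -0.64 ± 0.028. Insig1 read 11.32, 11.30, 11.37 and 11.38 without and 10.73, 10.66, 10.75 and 10.76 with IL4, or -0.62 ± 0.032. Nsdhl, with 10.43, 10.40, 10.39 and 10.46 without and 9.87, 9.86, 9.87 and 9.85 with IL4, had -0.56 ± 0.031, and in none of these genes did the groups overlap.

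Scd1 again fell most of all 12905 tested genes, from 12.78, 12.83, 12.84 and 12.85 without IL4 to 11.57, 11.75, 11.60 and 11.71 with it, a log2 fold change of -1.17 ± 0.040 (adjusted p = 3.11e-12). Acss2 read 8.88, 8.87, 8.95 and 8.94 without and 8.43, 8.28, 8.43 and 8.25 with IL4, or -0.56 ± 0.040. Acly read 13.11, 13.20, 13.19 and 13.17 without and 12.64, 12.78, 12.64 and 12.72 with IL4, or -0.47 ± 0.032. Elovl5, which lengthens polyunsaturated fatty acids, read 12.28, 12.26, 12.26 and 12.25 without and 11.80, 11.85, 11.78 and 11.81 with IL4, or -0.45 ± 0.020. Within the fatty acid branch the long transcripts of Acaca and Fasn spread most among the treated libraries of this line, Acaca with 10.74, 11.10, 10.88 and 10.99 and Fasn with 12.86, 13.29, 13.12 and 13.15, where libraries 1 and 3 were the lower pair in both genes.

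The order of the members was alike in the 2 lines, which share no library in this comparison. Across the 31 genes the log2 fold changes had a Pearson r of 0.96 and a Spearman rho of 0.93. Genes are not independent replicates, and the values of both lines were normalised together. The plot of every library shows the treated columns of both lines in blue for all but a few rows, and Hmgcs1, Insig2 and Fasn are the rows whose treated and untreated libraries overlap in both lines.

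Knockdown of Kdm1a was accompanied by higher values of part of both branches. Without IL4, 10 of 22 sterol genes and 6 of 9 fatty acid genes were higher in shKDM1A than in shGFP cells and none was lower, against 19.7% of all tested genes called higher and 18.4% called lower. For 18 of the 31 members the knockdown libraries all lay above the control libraries, against 19.6% of all tested genes. The changes were small: the median log2 fold change was 0.11 for the sterol branch and 0.06 for the fatty acid branch, against -0.0027 for all tested genes. The largest was that of Elovl5, from 11.72, 11.76, 11.79 and 11.77 in shGFP to 12.28, 12.26, 12.26 and 12.25 in shKDM1A cells, a log2 fold change of 0.50 ± 0.020 (adjusted p = 7.84e-12), with no overlap.

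In the sterol branch 7 of the 11 genes between squalene and cholesterol were called, 2 of the 7 mevalonate genes and 1 of the 4 genes of regulation and transport. Tm7sf2 read 7.49, 7.45, 7.41 and 7.42 in shGFP and 7.66, 7.66, 7.64 and 7.77 in shKDM1A cells, or 0.24 ± 0.030 (adjusted p = 7.96e-06). Sc5d read 10.17, 10.17, 10.28 and 10.14 in shGFP and 10.42, 10.45, 10.40 and 10.36 in shKDM1A cells, or 0.22 ± 0.037 (adjusted p = 0.000221). Both lay higher in all 4 knockdown libraries than in any control library. Pmvk read 9.86, 9.76, 9.71 and 9.77 in shGFP and 10.04, 9.93, 9.93 and 9.99 in shKDM1A cells, or 0.20 ± 0.053 (adjusted p = 0.00772). Hsd17b7 read 10.22, 10.29, 10.21 and 10.26 in shGFP and 10.39, 10.40, 10.48 and 10.48 in shKDM1A cells, or 0.19 ± 0.036 (adjusted p = 0.000507). These groups did not overlap either. Fdft1 (0.16), Msmo1 (0.16), Mvd (0.14), Lss (0.13), Sqle (0.13) and Srebf2 (0.13) completed the 10.

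The sterol genes that were not called ranged from -0.07 in Dhcr7 to 0.17 in Hmgcs1, whose shKDM1A library 4 stood at 7.05 against 6.34 to 6.40 in the other 3. Leaving out 1 library brought Dhcr7 (in 3 cases, adjusted p 0.0387 to 0.0416, lower), Acat2 (without shGFP library 3, adjusted p = 0.0202, higher) and Insig1 (without IL4-treated shKDM1A library 2, adjusted p = 0.0452, higher) past the threshold. For Dhcr7 these cases were shGFP library 2 and shKDM1A libraries 2 and 4.

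Among fatty acid genes Scd1 was higher without IL4, with 12.78 to 12.85 in shKDM1A against 12.42 to 12.57 in shGFP cells, or 0.33 ± 0.040 (adjusted p = 6.06e-06). Acly, at 13.11 to 13.20 against 13.00 to 13.06, had 0.14 ± 0.032, and Acss2, at 8.87 to 8.95 against 8.71 to 8.84, had 0.13 ± 0.040. Fads1 (0.06) and Fads2 (0.05) had adjusted p of 0.00829 and 0.0445 and were the smallest changes called in this comparison. The call for Fads2 was lost in 10 of 16 fits with 1 library left out (shGFP 1, 2 and 3, IL4-treated shGFP 1, 2 and 4, and each shKDM1A library, adjusted p 0.0507 to 0.13), and its sign turned under quantile normalization (-0.015). That for Acss2 was lost without shGFP library 2 or shKDM1A library 3 (adjusted p 0.0521 to 0.0623). Acaca (0.03), Fasn (-0.01) and Elovl6 (-0.07) were not called.

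With IL4 present the difference between the lines covered more of the sterol branch. There 16 of 22 sterol genes and 5 of 9 fatty acid genes were higher in shKDM1A cells and none was lower, against 20.9% of all tested genes called higher and 19.8% called lower. For 20 of the 31 members the groups did not overlap, against 19% of all tested genes that were higher without overlap. The calls were 10 of the 11 genes between squalene and cholesterol, 4 of the 7 mevalonate genes and 2 of the 4 genes of regulation and transport. The median log2 fold change was 0.14 for the sterol branch and 0.11 for the fatty acid branch. With IL4-treated shKDM1A libraries 1 and 3 alone or 2 and 4 alone, 14 sterol and 5 fatty acid genes were called higher. Whether the 2 counts, with and without IL4, differ is given gene by gene by the test of the difference in IL4 response further on.

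Sc5d read 9.57, 9.70, 9.65 and 9.67 in treated shGFP and 10.03, 9.98, 9.88 and 10.02 in treated shKDM1A libraries, which is a difference of 0.33 ± 0.037 (adjusted p = 2.50e-06). Msmo1, which begins the removal of methyl groups from lanosterol products, read 11.32, 11.26, 11.24 and 11.34 against 11.61, 11.48, 11.57 and 11.66, or 0.29 ± 0.033 (adjusted p = 2.43e-06). Pmvk read 9.29, 9.20, 9.14 and 9.26 against 9.48, 9.54, 9.67 and 9.36, or 0.29 ± 0.053. Fdps, at 12.36 to 12.42 against 12.61 to 12.75, had 0.29 ± 0.028 (adjusted p = 3.95e-07). In each of these genes the treated knockdown libraries lay above the treated control libraries and below the untreated control libraries.

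Lss (0.27), Tm7sf2 (0.24), Mvd (0.23), Fdft1 (0.21), Srebf2 (0.19), Sqle (0.17), Insig1 (0.17), Idi1 (0.12), Nsdhl (0.11), Hsd17b7 (0.11), Cyp51 (0.09) and Ebp (0.08) were also higher. Ctsb, which overlaps Fdft1, differed by 0.27 without and 0.29 with IL4 in the same direction as Fdft1, and its part was not tested. The calls for Ebp (adjusted p = 0.0498), Hsd17b7 (adjusted p = 0.0293) and Idi1 (adjusted p = 0.0143) depended on single libraries. They were lost in 13, 5 and 1 of the 16 fits with 1 library left out, with adjusted p of up to 0.137, 0.0916 and 0.0536. For Idi1 the library was IL4-treated shGFP 1, for Hsd17b7 the libraries were IL4-treated shGFP 1, 3 and 4 and IL4-treated shKDM1A 1 and 4, and for Ebp all but shGFP 3 and 4 and IL4-treated shKDM1A 2. Dhcr7, Mvk, Acat2, Hmgcs1, Stard4 and Insig2 were not called, with log2 fold changes from 0.01 to 0.06.

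Scd1 showed the widest gap of any member with IL4, with 10.83, 10.83, 10.75 and 10.77 in shGFP against 11.57, 11.75, 11.60 and 11.71 in shKDM1A cells. The log2 fold change was 0.86 ± 0.040 (adjusted p = 5.66e-11), so that the treated knockdown cells held 81.4% more on this scale. Elovl5, at 11.37, 11.39, 11.41 and 11.38 against 11.80, 11.85, 11.78 and 11.81, had 0.42 ± 0.020, and Fads2, at 12.97, 12.95, 12.92 and 12.96 against 13.16, 13.15, 13.18 and 13.20, had 0.22 ± 0.018. Acly, at 12.52 to 12.61 against 12.64 to 12.78, had 0.13 ± 0.032, and Fads1 had 0.11 ± 0.017. Acss2, Acaca, Fasn and Elovl6 were not called, with log2 fold changes from -0.05 to 0.03. Under quantile normalization Acly and Fads1 lost their calls, which left 3 fatty acid genes.

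**Figure D3:**
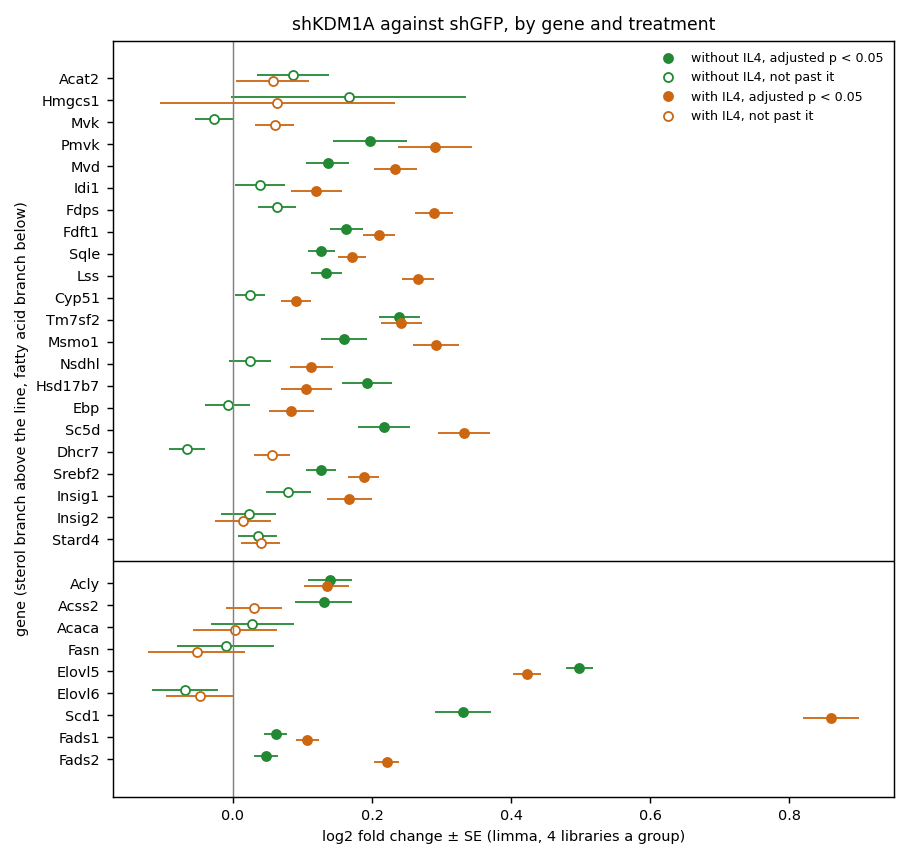
Log2 fold change of shKDM1A against shGFP cells for each gene without IL4 (green) and with IL4 (orange), with bars of ± 1 SE, from limma on 4 libraries a group; filled points passed an adjusted p of 0.05. No filled point lies to the left of 0, and Scd1 with IL4 (0.86) and Elovl5 without IL4 (0.50) lie farthest right in the 2 conditions.

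The response to IL4 itself was then compared between the lines. It differed past the threshold for 4 members, Fdps and Lss of the sterol branch and Scd1 and Fads2 of the fatty acid branch, against 3.56% of all tested genes called with a difference above 0 and 2.57% called with one below 0. All 4 fell in both lines and fell less in shKDM1A cells. The difference in log2 fold change was 0.53 ± 0.057 for Scd1 (adjusted p = 5.43e-05), 0.23 ± 0.039 for Fdps (adjusted p = 0.00284), 0.17 ± 0.025 for Fads2 (adjusted p = 0.000693) and 0.13 ± 0.032 for Lss (adjusted p = 0.0251). Scd1 was number 4 of the 12905 tested genes in order of this difference.

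For Scd1 the fall of -1.70 in shGFP cells stood against -1.17 in shKDM1A cells, and for Fdps -0.87 stood against -0.64. For Fads2 -0.61 stood against -0.43, and for Lss -0.80 stood against -0.67. Seen from the other side, the lines differed without IL4 by 0.06 in Fdps, 0.05 in Fads2, 0.13 in Lss and 0.33 in Scd1, and with IL4 by 0.29, 0.22, 0.27 and 0.86. The call for Lss was lost when shGFP library 4, IL4-treated shGFP library 3 or shKDM1A library 3 was left out (adjusted p 0.0509 to 0.054), and with IL4-treated shKDM1A libraries 2 and 4 alone, where 1 sterol and 2 fatty acid genes were called, while with libraries 1 and 3 alone 4 sterol and 3 fatty acid genes were called. Msmo1 (0.13 ± 0.046) was not called (adjusted p = 0.101) and was called without IL4-treated shKDM1A library 2 (adjusted p = 0.0214).

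**Figure D4:**
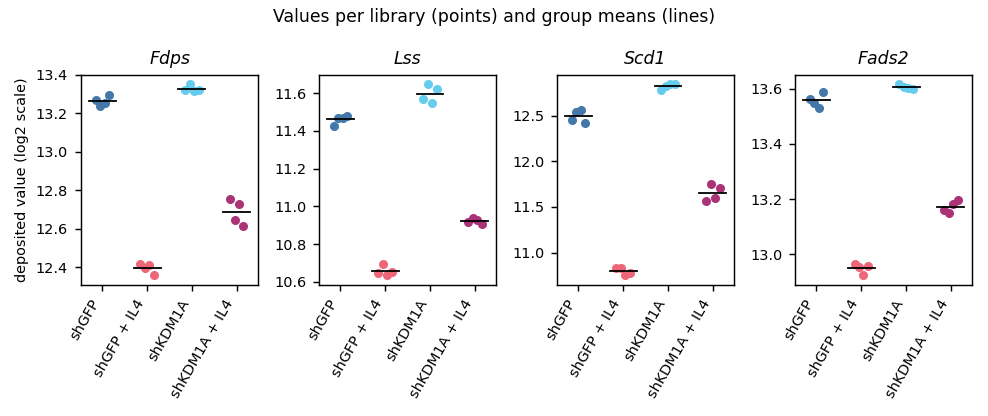
Deposited values (log2 scale, axes not starting at 0) of the 4 genes whose IL4 response differed between the lines, with each of the 4 libraries a group as a point and the group mean as a line. The treated shKDM1A libraries lie above the treated shGFP libraries in all 4 genes, as in Scd1 with 11.57 to 11.75 against 10.75 to 10.83.

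The other 27 members did not pass the threshold for a difference in response, which does not show that they responded alike. Of these, 16 of 20 differences in the sterol branch and 2 of 7 in the fatty acid branch were above 0, with medians of 0.07 and -0.025. The 27 ranged from -0.10 in Hmgcs1 and in Acss2 to 0.13 in Msmo1. Tm7sf2 (0.0028 ± 0.042), Acly (-0.0043 ± 0.045) and Stard4 (0.0045 ± 0.040) lay nearest to 0.

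Genes of the same pathways outside the 31 were read from lists written with earlier results of these data known. Of 16 other sterol genes 7 were lower and 3 higher with IL4 in shGFP cells, where 13.7% of all tested genes were lower and 13.1% higher. Among the higher was Npc1, which exports cholesterol from lysosomes (0.26 ± 0.041). In shKDM1A cells, where 13.5% of all tested genes were lower and 13.6% higher, 5 were lower, and Scap, the SREBP escort, was the 1 that was higher (0.16 ± 0.030). Of 13 other fatty acid genes 10 were lower and none higher in shGFP cells, led by Scd2 (-1.06 ± 0.034), Lpin1 (-0.67 ± 0.066) and Aacs (-0.59 ± 0.032), and in shKDM1A cells 9 were lower and 2 higher. Scd2 encodes a second stearoyl-CoA desaturase, and its response differed between the lines by 0.43 ± 0.048 (adjusted p = 7.59e-05), in the direction of Scd1, with which it could share reads. Srebf1, which encodes SREBP1 (0.15 ± 0.027, adjusted p = 0.0042), and Slc25a1, the mitochondrial citrate carrier (0.20 ± 0.029), also had a difference above 0, and none of the 13 had a called difference below 0. Among the 16 other sterol genes 2 differences in response were called below 0, Npc1 (-0.21 ± 0.058, adjusted p = 0.0452) and Soat1, a cholesterol acyltransferase (-0.14 ± 0.028, adjusted p = 0.00896), and 1 above 0, Tmem97 (0.22 ± 0.033). Of all tested genes 2.57% were called below and 3.56% above 0.

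Between the lines the other fatty acid genes were mostly higher in shKDM1A cells, 9 of 13 without and 10 of 13 with IL4, with 1 and 0 lower, led by Me1 (malic enzyme, 0.37 and 0.47). Of the 16 other sterol genes 5 were higher and 3 lower without IL4 and 4 were higher and 2 lower with it, beside the shares of all tested genes (19.7% higher and 18.4% lower without IL4, 20.9% and 19.8% with it). Among the higher were Npc2 (a lysosomal cholesterol carrier, 0.67 and 0.75) and Acat1 (0.27 and 0.35). Of 8 genes of the LXR and oxysterol list 7 passed the filter, Ch25h being the exception. With IL4 in shGFP cells 3 were lower, Abcg1 (-1.0 ± 0.024), Abca1 (-0.30 ± 0.044) and Lpcat3 (-0.24 ± 0.021), which are textbook LXR targets in efflux and phospholipid remodelling, and Nr1h3, which encodes LXRα, was higher (0.21 ± 0.042). In shKDM1A cells the same 4 genes were called in the same directions, with Abcg1 at -0.81. The shares of all tested genes were 13.7% lower and 13.1% higher in shGFP and 13.5% and 13.6% in shKDM1A cells. Between the lines 2 of the 7 were higher and 1 lower without IL4 and 2 were higher and 3 lower with it. The difference in response between the lines was past the threshold for Abcg1 (0.19 ± 0.034, adjusted p = 0.00373).

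Macrophage markers moved in the same comparisons. With IL4 in shGFP cells 4 of 10 were lower and 3 higher, from Cd14 (-0.93) to Mrc1 (1.32), and in shKDM1A cells 4 were lower and 4 higher. Between the lines 3 were lower and 5 higher without IL4, and 3 lower and 6 higher with it, including Lyz2 (0.68). The difference in IL4 response was called below 0 for 3 of the 10, Mrc1 (-0.82), Adgre1 (-0.33) and Itgam (-0.16). It was called above 0 for 3, Cd14 (0.48), Lyz2 (0.42) and Fcgr1 (0.27), against 2.57% below and 3.56% above 0 among all tested genes. In Mrc1, Adgre1, Cd14 and Lyz2, as in the 4 members, the change with IL4 was the smaller one in shKDM1A cells. Itgam and Fcgr1 did otherwise. Itgam changed by -0.026 with IL4 in shGFP and by -0.19 in shKDM1A cells. Fcgr1 changed by -0.12 in shGFP cells and in the other direction, by 0.15, in shKDM1A cells. The shares of all tested genes were 13.7% lower and 13.1% higher with IL4 in shGFP and 13.5% and 13.6% in shKDM1A cells, and between the lines 18.4% lower and 19.7% higher without IL4 and 19.8% and 20.9% with it. The mean log2 level over the 10 markers ran from 12.29 to 12.32 in shGFP, 12.37 to 12.41 in IL4-treated shGFP, 12.33 to 12.35 in shKDM1A and 12.43 to 12.46 in IL4-treated shKDM1A libraries, and its part in the results above was not tested. The defining markers Cd3e, Cd3d, Cd4, Cd8a, Ms4a1, Cd79a, Pax5, Col1a1, Col1a2, Pdgfra, Dcn, Epcam, Krt8, Krt18 and Cdh1 lay at or below 0 in every library.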

How the data were processed

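RNA-seq of 16 RAW cell libraries was used, grouped by the GEO titles. Per the study's methods and the file header, the authors aligned reads to mm9 with HISAT2 and Bowtie2, counted them over exons on both strands with HOMER, 1 transcript per gene, and compared groups with DESeq2. The deposited values per library are normalised by the authors on a log2 scale with decimal commas, and the transformation is not named. The authors' fold changes and p-values, the only content of the bone marrow macrophage table besides annotation, were not used. Columns of samples of no known group numbered 0.

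The log2 values were fitted with limma 3.58.1 in R 4.3.3 as 1 model of 4 group means over genes that reached 1 in 4 or more of the 16 libraries, with 5 two-sided contrasts and Benjamini-Hochberg adjustment over all 12905 genes. In simulated data for IL4 in shGFP cells (12905 genes), 100 of 100 genes changed by 0.5 and 90 of 100 changed by 0.2 on the log2 scale were recovered, with 10 false calls. Levels between genes were compared after subtracting log2 of the transcript length in kb. No 2 libraries of a group shared a gene with an equal value, and their median absolute difference was 0.036 to 0.056.

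Per branch and comparison, values in every library are given for up to 4 called members with the largest change. Up to 3 called genes of each other list are named per comparison, with more from the LXR and macrophage marker lists in some cases. A few genes of the other lists are not reported here by name. The members and lists were chosen with earlier results of these data known. Promoter windows and motif searches used pandas 2.3.3. The alternatives tried were other filters, only the 2 groups compared, a replicate block, quantile normalization or median centring, a prior variance with a trend, a minimum change of 0.5, leaving out each library in turn and, chosen after seeing the data, only libraries 1 and 3 or 2 and 4 of IL4-treated shKDM1A cells.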

Additional observations from a re-analysis of the deposited data

Results flagged for a closer look

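In 6 of the 124 pairs of a gene and a group, 1 of the 4 libraries stood apart from the other 3 by more than Dixon's 95% limit, and chance flags about 1 in 20 such pairs. Acat2 read 11.1 in shGFP library 3, against 10.87 to 10.9 in the others. Hmgcs1 read 7.05 in shKDM1A library 4, against 6.34 to 6.4. Mvd read 11.05 in the same library, against 11.1 in each of the other 3, and Stard4 read 10.96 there, against 11.02 to 11.03. Idi1 read 10.41 in IL4-treated shKDM1A library 4, against 10.26 to 10.28, and Fasn read 13.29 in shGFP library 2, against 13.12 to 13.14.

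For 4 genes the response to IL4 differed between the lines by the limma test of the difference itself, as described above. The response in shKDM1A minus that in shGFP cells was 0.53 for Scd1, 0.23 for Fdps, 0.17 for Fads2 and 0.13 for Lss, each with a smaller fall in shKDM1A cells.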

How the results depend on the processing

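Of 4051 values of single genes recomputed under the alternatives, 3899 kept their direction and their side of the threshold, and of 387 counts of genes 363 stayed within 1.5 times the count reported. The numbers of genes called with IL4 in shGFP cells, with IL4 in shKDM1A cells, between the lines without IL4 and between them with IL4 were 3466, 3497, 4927 and 5255. Requiring also a log2 change over 0.5 left 174, 141, 337 and 319 of them. The sterol members lower with IL4 were then 10 in shGFP and 6 in shKDM1A cells, and the fatty acid members 2 and 2. Between the lines 0 sterol and 0 fatty acid members without IL4, and 0 and 1 with IL4, remained higher, since most changes were smaller than 0.5. For the difference in IL4 response 17 genes were left, 0 sterol and 1 fatty acid member among them.

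That difference was called for 791 genes, for 431 with no filter on low values, for 2282 (4 sterol members) with IL4-treated shKDM1A libraries 1 and 3 only and for 348 (1 sterol member) with libraries 2 and 4 only. The cause was not tested. Quantile normalization left 3 fatty acid members higher between the lines with IL4 and 4 without IL4. It turned Fads2 between the lines without IL4 to -0.015.

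Leaving out each library in turn gave 2975 to 3619, 3018 to 3539, 4419 to 5048, 4697 to 5293 and, for the difference, 530 to 1104 genes. The sterol members were 19 to 20, 19 to 20, 10 to 11, 13 to 16 and 1 to 3, and the fatty acid members 8 to 8, 8 to 8, 4 to 6, 5 to 5 and 2 to 2. The sterol count for the difference was 1 without shGFP library 4, IL4-treated shGFP library 3 or shKDM1A library 3.

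Same-numbered libraries did not pair: 3 of 24 pairs had a correlation of deviations over 0.1 (range -0.34 to 0.27), and 6 of 16 libraries correlated best with their own number. A replicate block gave 3430, 3459, 4882, 5212 and 732 genes called, 20, 19, 11, 15 and 2 sterol and 8, 8, 5, 5 and 2 fatty acid members. No scaling moved the median log2 fold change of all genes by over 0.1, while the branch medians between the lines were only 0.06 to 0.14. Of the genes called between the lines without IL4, 51.7% were higher as deposited and 43.2% after quantile normalization. With IL4 these shares were 51.3% and 45.0%. The deposited values carry no counts, so depth per gene is unknown.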
